A study of Mus musculus with 2 samples.

Results

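The genes described here encode 7 ligands of the tumour necrosis factor (TNF) superfamily, Tnf, Lta, Ltb, Tnfsf9, Cd70, Tnfsf14 and Tnfsf15, of 21883 protein-coding genes in the RefSeq table used. The members were set by name, and every H4K16ac peak overlapping a gene or the 20 kb on each side of it was taken from both deposited peak lists. H4K16ac is acetylation of histone H4 at lysine 16, and it was mapped by CUT&Tag, in which an antibody brings a transposase to the modified histone so that nearby DNA is cut and tagged. The groups were KAT8-cKO and WT, the genotype labels, with 1 library each. KAT8-deficient is the labels' other name for KAT8-cKO. Both libraries were made from mouse primary bone marrow-derived macrophages grown in medium with M-CSF at 20 ng/ml, a growth factor for macrophages. Both were treated with R848, an activator of the receptor TLR7, at 100 ng/ml for 2 h, so no untreated cells enter the comparison. The sources used here do not give the Cre driver or other means of deletion, the strain, the age and sex of the mice, or whether animals were pooled. With 1 library per genotype there is no replicate error and no test between genotypes, and every difference below is between these libraries.

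Most H4K16ac in mammalian cells depends on the acetyltransferase KAT8, which works in the MSL and NSL complexes. TNF superfamily ligands are membrane proteins that act as trimers, some of them after release from the cell, and bind receptors of the TNF receptor superfamily, which recruit TRAF adaptors or death domain proteins. In macrophages, Tnf is among the first cytokine genes to be transcribed after a Toll-like receptor is engaged, while Lta and Ltb are known mainly from lymphocytes. Tnfsf9, Cd70, Tnfsf14 and Tnfsf15 encode costimulatory ligands for T cells and natural killer cells.

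The 7 genes form 3 loci in mm10, because most of the windows overlap. Ltb (chr17:35194507-35196305), Tnf (chr17:35199367-35202007) and Lta (chr17:35203165-35205578) lie next to each other in the major histocompatibility complex, and their windows merge into 51.1 kb. Tnfsf9 (chr17:57105287-57107758), Cd70 (chr17:57145997-57149777) and Tnfsf14 (chr17:57189474-57194181) follow each other farther along the same chromosome, in 128.9 kb. Tnfsf15 (chr4:63724600-63745059) stands alone, in 60.46 kb. Peaks in a shared window are therefore the same peaks counted for more than 1 gene, and the genes of a locus are not separate observations.

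The start of Tnf was the only start region among 5 members that a peak covered. RefSeq (GRCm38.p6, the assembly behind mm10) gives the region from 250 bases before to 50 bases after the start for Tnf, Lta, Ltb, Tnfsf14 and Tnfsf15, and Tnfsf9 and Cd70 were not matched. The WT peak held all 300 bases at Tnf, and no KAT8-cKO peak held any. That WT peak had a −log10 q of 0.859, so its q-value was not under 0.05. At the other 4 genes neither list covered a base of the region. The 250 bases before the start are shown for Tnf, for its neighbour Ltb, which had a peak only near its 3′ end, and for Tnfsf14, where a KAT8-cKO peak began upstream of these bases. They run 5′ to 3′ on the gene's own strand (minus for Tnf and Tnfsf14, plus for Ltb). Capitals mark matches to 5 motifs that were searched on both strands of the 300 bases: the NF-κB consensus, the AP-1 motif TGANTCA, the SP1 motif GGGCGG, the TATA box TATAAA and the ETS motif AGGAAGT.
Tnf (chr17:35202008-35202257): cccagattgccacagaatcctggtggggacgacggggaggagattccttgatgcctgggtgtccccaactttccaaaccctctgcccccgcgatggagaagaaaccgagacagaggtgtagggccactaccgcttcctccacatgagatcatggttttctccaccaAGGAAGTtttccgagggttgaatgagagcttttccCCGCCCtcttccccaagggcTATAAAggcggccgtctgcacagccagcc
Ltb (chr17:35194257-35194506): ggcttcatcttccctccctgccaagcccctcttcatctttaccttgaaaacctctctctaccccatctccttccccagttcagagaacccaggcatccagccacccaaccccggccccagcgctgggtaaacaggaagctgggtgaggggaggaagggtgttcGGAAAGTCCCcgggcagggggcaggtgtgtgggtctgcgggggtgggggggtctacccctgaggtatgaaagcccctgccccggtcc
Tnfsf14 (chr17:57194182-57194431): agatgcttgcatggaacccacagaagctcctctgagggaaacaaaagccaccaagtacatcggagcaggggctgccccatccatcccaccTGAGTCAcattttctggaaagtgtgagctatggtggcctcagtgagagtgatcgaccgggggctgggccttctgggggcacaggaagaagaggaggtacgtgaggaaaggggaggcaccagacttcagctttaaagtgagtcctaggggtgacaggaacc

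Tnf held a TATA box that began 29 bases before the start, an SP1 match that began 49 bases before it and an ETS match that began 84 bases before it. Ltb held the NF-κB consensus, beginning 87 bases before the start, and Tnfsf14 held an AP-1 match beginning 160 bases before it. Lta held a TATA box match beginning 167 bases before the start that RefSeq lists, and Tnfsf15 had none of these letters in its window. No match overlapped another. Of 32851 promoters of the same length, 8.46% held the NF-κB consensus, 7.81% the AP-1 motif, 35.7% the SP1 motif, 13.6% the TATA box and 9.35% the ETS motif. The matches describe letters in these windows and do not show binding. The G and C content was 58.0% at Tnf, 63.3% at Ltb and 55.7% at Tnfsf14, against a median of 52.7% over all promoters.

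Across the 3 loci, the KAT8-cKO list held 11 peaks covering 2980 bp and the WT list 13 peaks covering 5170 bp. The whole lists held 55149 KAT8-cKO and 58229 WT peaks, with median widths of 285 and 296 bp. The fold of a peak is its enrichment over the local background that the authors' peak caller set in that library, so folds rank peaks within a list and do not measure a change between lists. KAT8-cKO folds ran between 2.35 and 2.99 with a median of 2.65, and WT folds between 2.10 and 4.46 with a median of 2.76. The whole lists had median folds of 2.78 in KAT8-cKO and 2.90 in WT. Of the 11 KAT8-cKO peaks 6, and of the 13 WT peaks 7, had a lower −log10 q than the median peak of their own list. A q-value under 0.05 was reached by 4 of the 11 KAT8-cKO and 6 of the 13 WT peaks, against 47.0% and 46.9% over the whole lists. Most peaks around these ligand genes were thus ordinary or weak members of both lists. Only 2 of them, the WT peaks beside Cd70 and upstream of Tnfsf14, lay above the 90th percentile of their list.

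**Figure D1:**
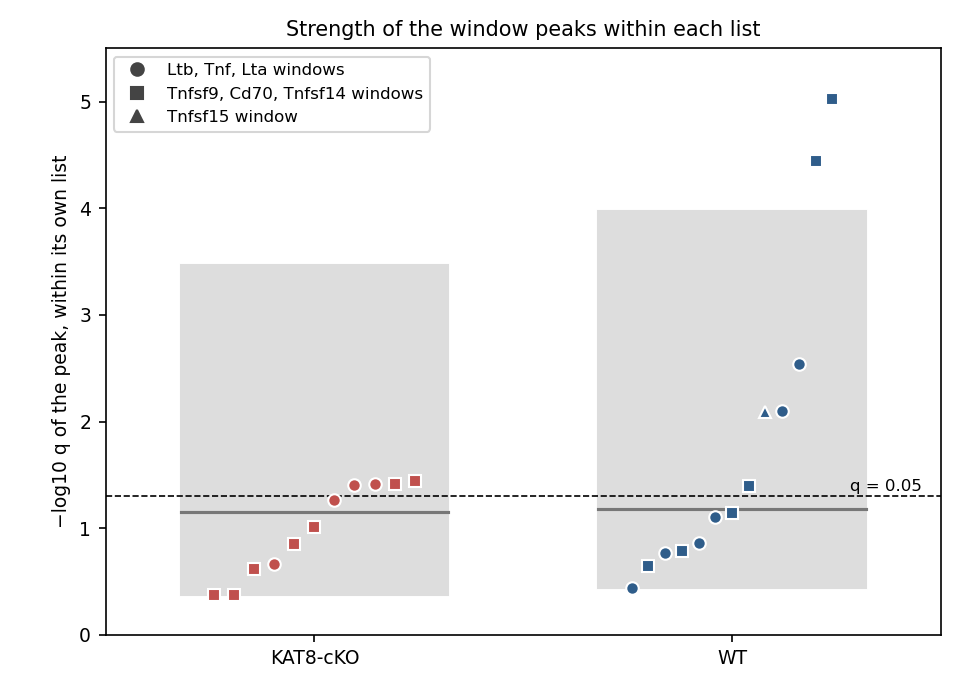
Strength of every peak in the 3 loci within its own list, KAT8-cKO (11 peaks) on the left and WT (13 peaks) on the right, as −log10 of the peak caller's q-value. Symbols give the locus, the grey box spans the 10th to 90th percentile of all peaks of that list, the grey line is its median and the dashed line is q = 0.05. The KAT8-cKO peaks reach 1.45 and stay inside the box, and 2 WT peaks, at 4.45 and 5.02, lie above it.

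Few of these peaks coincided between the lists. Of the KAT8-cKO peaks 3 of 11 were overlapped by a WT peak by at least 1 bp, and of the WT peaks 3 of 13 by a KAT8-cKO peak. Over the whole lists 35.6% of KAT8-cKO and 33.2% of WT peaks were overlapped, so the counts around these genes were not far from the background. The shared places were an end of Tnfsf9, a place in the non-coding gene Gm33566, which overlaps Cd70, and a place inside Nfkbil1 beside Lta. When both peaks had to reach a q-value under 0.05, 0 of 4 KAT8-cKO and 0 of 6 WT peaks were overlapped. Over the whole lists 40.6% of such KAT8-cKO and 38.0% of such WT peaks were, and the counts here are too small to be read against these shares.

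Every member except Tnfsf15 in KAT8-cKO had some peak in its window: 6 of 7 in KAT8-cKO and 7 of 7 in WT. Such a peak was also found for 80.2% of all protein-coding genes in KAT8-cKO and 80.5% in WT. The median gene had 3 peaks in a window of this kind in either list. The windows of the members held between 0 and 4 KAT8-cKO peaks and between 1 and 6 WT peaks.

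A peak within 1 kb of an annotated end was present at 4 of 7 members in KAT8-cKO (Lta, Ltb, Tnfsf9 and Tnfsf14) and at 3 of 7 in WT (Tnf, Lta and Tnfsf9). The share over all protein-coding genes was 43.3% in KAT8-cKO and 46.8% in WT. Thus 2 members were marked in KAT8-cKO only (Ltb and Tnfsf14), against 7.52% of all genes, and 1 in WT only (Tnf), against 11.1%. Another 2 were marked in both (Lta and Tnfsf9), against 35.8%, and Cd70 and Tnfsf15 in neither. The 2 lists marked Lta through different peaks at opposite ends, so Tnfsf9 was the only member with an overlapping pair of end peaks. With a q-value under 0.05, 1 member had an end peak in KAT8-cKO (Lta) and 0 in WT. Over all genes 31.3% had such a peak in KAT8-cKO and 36.8% in WT. Around the start itself, 2 of the 5 members with a listed start had a peak within 1 kb in KAT8-cKO (Lta and Tnfsf14) and 1 of 5 in WT (Tnf). Of the 17491 protein-coding genes with a listed start, 42.7% had one in KAT8-cKO and 46.7% in WT. Counts of so few genes are too small to be read against these shares.

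At Tnf, which encodes the cytokine that starts much of the inflammatory response, the only end peak was the WT peak over the start (chr17:35201922-35202322). It was 401 bp wide, its summit lay 62 bp inside the gene, its fold was 2.39 and its −log10 q 0.859. In the WT list 33.0% of peaks had a lower −log10 q, and its q-value was not under 0.05. The nearest KAT8-cKO peak lay 2284 bp away, inside Lta. No peak of either list lay in the body of Tnf away from its ends.

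Upstream of Tnf and Lta, the WT list held a stronger peak between Lta and Nfkbil1 (chr17:35210036-35210383). Its fold was 3.13 and its −log10 q 2.54, above 79.6% of WT peaks, and its summit lay 8202 bp upstream of the Tnf start and 4858 bp upstream of the Lta start. The nearest KAT8-cKO peak lay 5231 bp away. A WT peak farther upstream (chr17:35218843-35219147) had a fold of 2.76 (−log10 q 2.10). It ended shortly before Nfkbil1, which encodes a protein with similarity to the IκB inhibitors of NF-κB.

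Nfkbil1 shares the windows of Tnf and Lta, and its annotated end nearest to them is its 3′ end. The WT list had 2 peaks within 1 kb of that end, with folds of 2.41 and 2.10, and the KAT8-cKO list had 0. Inside Nfkbil1 both lists had a peak, at chr17:35222551-35222774 in KAT8-cKO and chr17:35222497-35222849 in WT. The KAT8-cKO peak had a fold of 2.65 (−log10 q 1.41) and lay wholly within the WT peak, which had a fold of 2.29 (−log10 q 0.769). This was the only shared place of the Ltb, Tnf and Lta windows.

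At Lta, whose product lymphotoxin alpha forms trimers that bind the TNF receptors, the KAT8-cKO list had a peak inside the gene (chr17:35204606-35204805). It was 200 bp wide and reached a fold of 2.77 at a −log10 q of 1.40, above 55.1% of KAT8-cKO peaks. Its summit lay 650 bp downstream of the start RefSeq gives. The WT list marked Lta only through the peak at the Tnf start, which lay 843 bp beyond the 3′ end of Lta. The peak inside Lta also lay beside Mir6974, a microRNA gene within Lta.

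At Ltb, whose product joins lymphotoxin alpha in a membrane trimer that binds the receptor Ltbr, the KAT8-cKO list had a peak near the 3′ end (chr17:35195728-35195949). Its summit lay 1288 bp downstream of the start, with a fold of 2.77 (−log10 q 1.27), which is not under 0.05 as a q-value. Another KAT8-cKO peak lay 4255 bp upstream of Ltb, with a fold of 2.41 (−log10 q 0.663). No WT peak lay in Ltb, and the closest was the one at the Tnf start, 5617 bp beyond the 3′ end. On the side of Ltb that holds Lst1 and Aif1, the WT list had no peak within 20 kb.

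**Figure D2:**
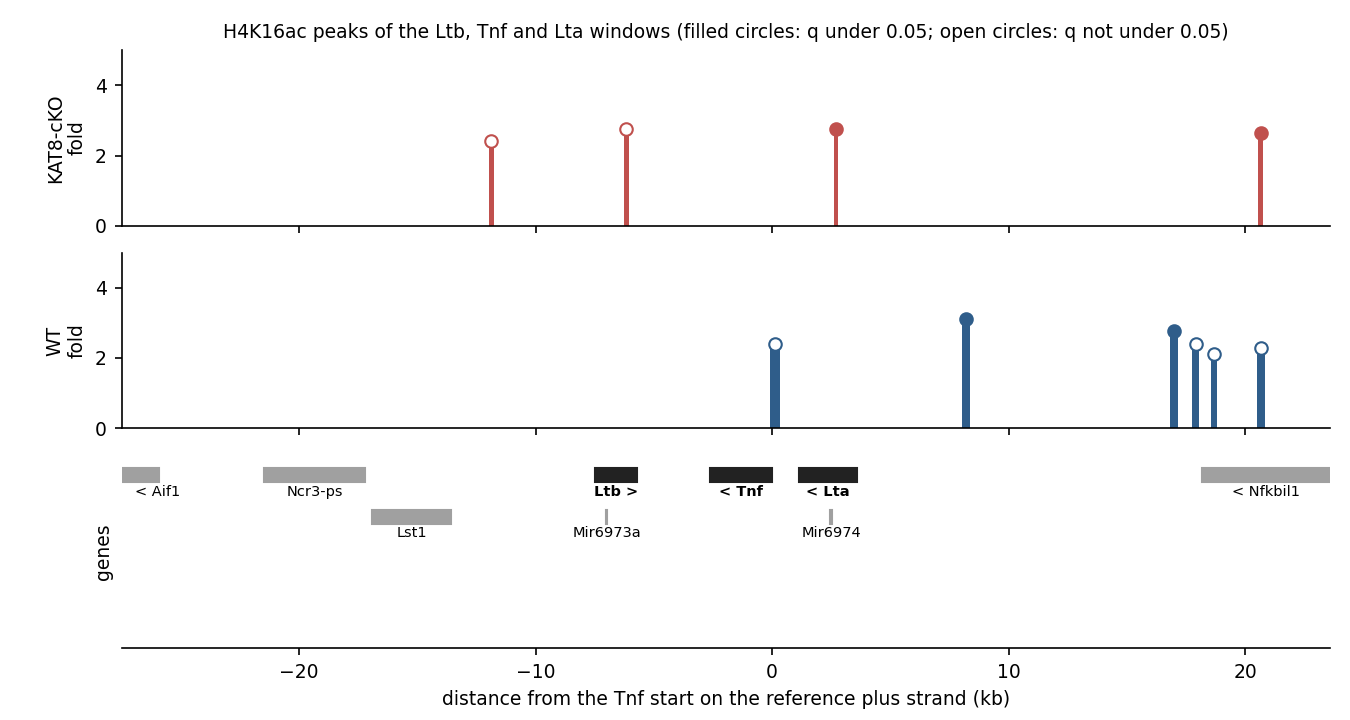
H4K16ac peaks around Ltb, Tnf and Lta, KAT8-cKO above WT, with genes underneath (members in black and bold, arrowheads giving the strand where RefSeq's promoter table has it). The x axis is the distance from the Tnf start in kb along the plus strand, bar width is the peak's extent and bar height its fold over its own library's background, with filled circles where q was under 0.05. The peak at 0 is in WT only, with a fold of 2.39 and a q-value not under 0.05. Peaks of both lists coincide only in Nfkbil1.

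At Tnfsf9, which encodes the ligand of the costimulatory receptor Tnfrsf9, both lists had a peak over the same end. The KAT8-cKO peak (chr17:57105489-57105842) had a fold of 2.35 (−log10 q 0.374). The WT peak (chr17:57105408-57105634) had a fold of 2.54 (−log10 q 0.789). They shared 146 bp, which is 41.2% of the KAT8-cKO peak and 64.3% of the WT peak. Neither reached a q-value under 0.05, and 3.50% of KAT8-cKO and 31.5% of WT peaks had a lower −log10 q. The non-coding gene Gm11110 overlaps Tnfsf9 there, so the peaks cannot be given to one gene.

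The rest of the Tnfsf9 window held different peaks in the lists. The KAT8-cKO list had 2 peaks at or in Tubb4a, a tubulin gene, with folds of 2.67 and 2.61. The WT list had none in the part of Tubb4a that the window holds. Its nearest peak lay 1392 bp from the first of them, in the part of Tubb4a outside the window. The WT list had 1 peak inside Gm11110 (chr17:57095248-57095521), with a fold of 2.88 (−log10 q 1.39), at the edge of the non-coding gene Gm46589. The nearest KAT8-cKO peak lay 7700 bp away.

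Cd70, which encodes the ligand of the receptor Cd27, had no peak at an end or in its body in either list. The strongest WT peak of all 3 loci lay 6494 bp from it, inside Gm33566 (chr17:57156271-57157132). It was 862 bp wide, with a fold of 4.46 (−log10 q 5.02), above 92.9% of WT peaks. A KAT8-cKO peak lay wholly inside it (chr17:57156523-57157091), 569 bp wide, with a fold of 2.35 (−log10 q 0.374), above 3.50% of KAT8-cKO peaks. The same place was thus near the strong end of the WT list and near the weak end of the KAT8-cKO list. Of the 4136 WT peaks at least as strong by −log10 q anywhere in the genome, 5.46% were likewise overlapped only by KAT8-cKO peaks with a q-value not under 0.05. This peak was singled out after its values were seen, so the share is a description.

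The Cd70 window also had peaks of single lists. The KAT8-cKO list had 1 at the far side of Gm33566 (chr17:57168252-57168451), with a fold of 2.99 (−log10 q 1.41), the highest KAT8-cKO fold of the 3 loci. The WT list had 2 on the other side of Cd70, towards Tnfsf9, with folds of 2.52 and 2.86. They lay 11062 and 6603 bp from Cd70, and neither reached a q-value under 0.05.

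At Tnfsf14, which encodes LIGHT, a ligand of the receptors Tnfrsf14 and Ltbr, the lists had neighbouring peaks that did not touch. The KAT8-cKO peak (chr17:57194586-57194880) began 405 bp upstream of the gene, with a fold of 2.45 (−log10 q 0.618). The WT peak (chr17:57198306-57198747) began 4125 bp upstream, with a fold of 3.89 (−log10 q 4.45), above 91.3% of WT peaks. The gap between them was 3426 bp, and no WT peak lay at an end of Tnfsf14. Of the 5076 WT peaks at least as strong as this one, 8.45% had no overlapping KAT8-cKO peak, a share given as a description for the same reason. The KAT8-cKO list had another peak in the window, inside the complement gene C3 (chr17:57205366-57205565), with a fold of 2.92 (−log10 q 1.45).

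**Figure D3:**
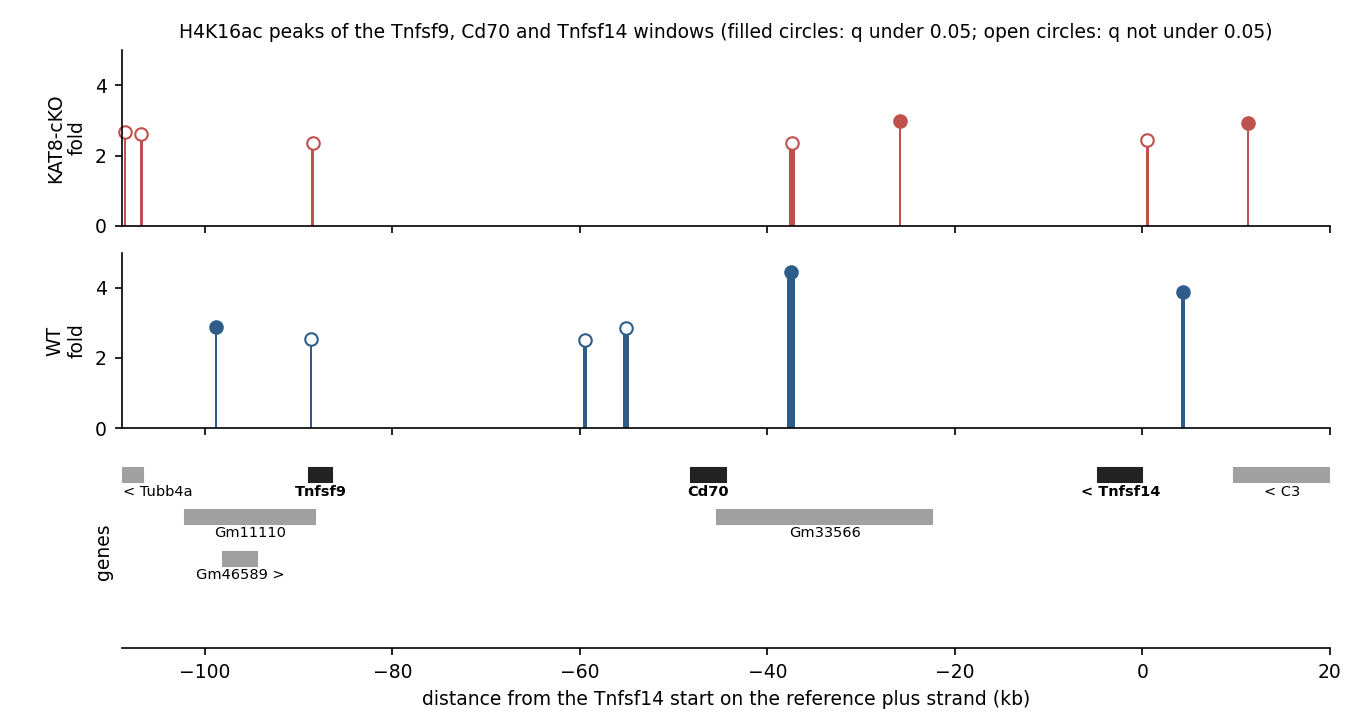
H4K16ac peaks around Tnfsf9, Cd70 and Tnfsf14, KAT8-cKO above WT, drawn as distance from the Tnfsf14 start in kb against fold over each library's own background, with filled circles where q was under 0.05, genes underneath and members in black. The tallest bars are the WT peaks in Gm33566 (fold 4.46) and upstream of Tnfsf14 (3.89). The KAT8-cKO bar at the first place is 2.35 high, and no KAT8-cKO peak stands at the second.

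Tnfsf15, which encodes TL1A, a ligand of the receptor Tnfrsf25, had 0 peaks in its window in KAT8-cKO and 1 in WT. The WT peak (chr4:63739529-63739948) lay in the gene body, 5440 bp downstream of the start, with a fold of 3.35 (−log10 q 2.09), above 71.8% of WT peaks. The nearest KAT8-cKO peak was 74927 bp away. A window with a peak in WT and none in KAT8-cKO was found for 5.26% of all protein-coding genes. The non-coding gene Gm42294 spans the whole of Tnfsf15 and more than its window, so the peak lies in both.

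The numbers behind these peaks are coarse. The KAT8-cKO peaks at Tnfsf9 and in Gm33566 had exactly the same fold, −log10 p and −log10 q, and 2630 of the 55149 KAT8-cKO peaks shared these values. The KAT8-cKO peak at the far side of Gm33566 shared its values with 4013 peaks in all. By contrast, the WT peak in Gm33566 shared its values with 5 of 58229 peaks, itself included. The KAT8-cKO list had 4158 distinct sets of these values and the WT list 4987. The sources used here give no read totals, so the depth at a gene is unknown, and the absence of a peak does not show that a place lacked H4K16ac.

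The receptors of these ligands were marked in both lists or in neither, with 1 exception. Over all protein-coding genes 35.8% were marked in both lists, 7.52% in KAT8-cKO only and 11.1% in WT only. The receptor counts are too small to be read against these shares. Of 7 receptor genes, 3 had a gene-end peak in both lists (Tnfrsf1a, Ltbr and Cd27), 0 in KAT8-cKO only, 1 in WT only (Tnfrsf25) and 3 in neither (Tnfrsf1b, Tnfrsf14 and Tnfrsf9). Tnfrsf1a, which encodes a death domain receptor for TNF, had folds of 2.97 in KAT8-cKO and 2.90 in WT, both with a q-value under 0.05. Its highest-fold end peaks lay just beyond the gene, and an end of Plekhg6 lies near one of Tnfrsf1a. Ltbr had folds of 2.71 (−log10 q 1.04) in KAT8-cKO and 2.75 (−log10 q 1.31) in WT. Its highest-fold end peaks did not overlap each other, and an end of Scnn1a lies near. Cd27 had 2.45 (−log10 q 0.931) in KAT8-cKO and 2.06 (−log10 q 0.435) in WT, with an end of Tapbpl near. The WT peak at Tnfrsf25 had a fold of 3.02 (−log10 q 2.17), and ends of Plekhg5 and Espn lie near those of Tnfrsf25.

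Of 11 other ligand genes of the superfamily, 2 had a gene-end peak in both lists, 1 in KAT8-cKO only and 1 in WT only. The other 7 had one in neither, Fasl and Cd40lg among them. Shares over all protein-coding genes were 35.8% in both lists, 7.52% in KAT8-cKO only and 11.1% in WT only. The counts here are too small to be read against them. Tnfsf13b, which encodes the B cell survival factor BAFF, had a KAT8-cKO peak (chr8:10006387-10006821) with a fold of 3.63 (−log10 q 2.91). Tnfsf10, which encodes the death ligand TRAIL, had a WT peak (chr3:27317495-27317750) with a fold of 3.18 (−log10 q 1.83). Neither peak was overlapped by the other list. Tnfsf12 had folds of 2.91 in KAT8-cKO and 2.73 in WT. The highest-fold end peaks of the lists lay at opposite ends of Tnfsf12. That in WT also lay within 1 kb of an end of the neighbour Tnfsf13. Tnfsf13 had folds of 2.72 in KAT8-cKO and 2.76 in WT. Its highest-fold end peaks did not overlap each other, and an end of Senp3 lies near.

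Every gene of the listed signalling chain downstream of the TNF receptors had a gene-end peak in at least 1 list. There were 22 of 27 in KAT8-cKO and 26 of 27 in WT, against 43.3% and 46.8% of all protein-coding genes. The list was chosen with earlier results of these data known, so the counts are a description. Some of the peaks counted had a q-value not under 0.05. Of the 27 genes, 21 had a gene-end peak in both lists, 1 in KAT8-cKO only and 5 in WT only. The shares over all genes were 35.8%, 7.52% and 11.1%. Marking in both lists did not require a shared place. At Ikbkb, Tab1 and Tradd the highest-fold end peaks of the lists did not overlap. Ripk1, the kinase recruited to the TNF receptor, had folds of 5.12 in KAT8-cKO and 5.92 in WT. An end of Serpinb6a lies near one of Ripk1. Rnf31, a subunit of the linear ubiquitin ligase, had 4.17 in KAT8-cKO and 5.04 in WT. Ends of Psme2 and Irf9 lie near those of Rnf31. Birc2, a ubiquitin ligase of the receptor complex, had 3.98 in KAT8-cKO and 4.85 in WT. Ikbkg, the X-linked regulatory subunit of the IκB kinase, had a −log10 q of 0.663 at a fold of 2.56 in KAT8-cKO, and of 10.9 at a fold of 6.35 in WT. An end of Fam3a lies near one of Ikbkg. These genes were picked for the highest WT folds among those marked in both lists, so the choice favours a higher WT value. Some of the other genes marked in both lists had the higher fold in KAT8-cKO. The signalling genes differed widely in strength: Ripk3, marked in WT only and named after its values were seen, had a −log10 q of 0.435.

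Of the signalling genes marked in a single list, Cflar, which encodes the caspase-8 inhibitor c-FLIP, had a KAT8-cKO fold of 3.36 (−log10 q 2.32). Tab3, Traf1 and Tnfaip3 had WT folds of 4.89, 3.45 and 3.40.

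**Figure D4:**
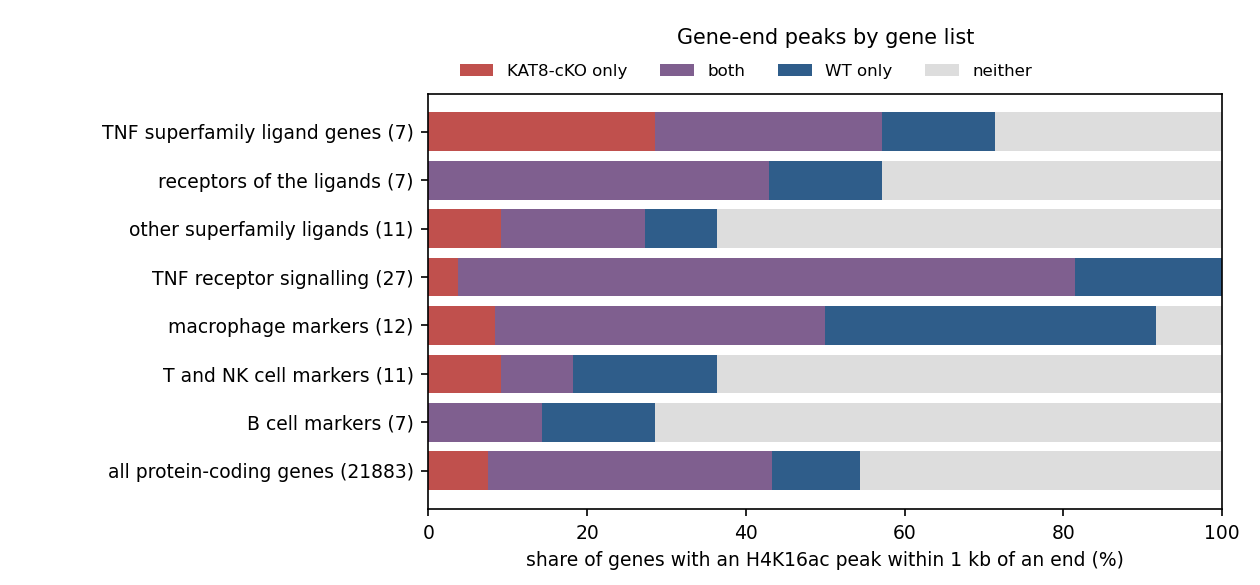
Share of genes, in %, with an H4K16ac peak within 1 kb of an annotated end in KAT8-cKO only, in both lists, in WT only or in neither, for the 7 ligand genes, 6 other gene lists and all 21883 protein-coding genes. Numbers in brackets are genes per list. Of the 27 signalling genes 21 were marked in both lists, against 2 of the 7 ligand genes and 35.8% of all genes. The gene lists were chosen with earlier results of these data known.

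The cell type label was set beside marker genes. Of 12 macrophage markers 6 had a gene-end peak in KAT8-cKO and 10 in WT, against 43.3% of all genes in KAT8-cKO and 46.8% in WT, so the KAT8-cKO count was near that of all genes. Spi1, Cebpa, Cd14, Cd68 and Mertk were marked in both lists, Itgam in KAT8-cKO only (−log10 q 1.54) and Lyz2 in neither. Cebpb, Csf1r, Adgre1, Fcgr1 and Tyrobp were marked in WT only. Among these, the highest-fold WT end peaks at Csf1r and Fcgr1 had a −log10 q of 0.435. Those at Adgre1, Cebpb and Tyrobp had 0.726, 0.941 and 3.83, so only that at Tyrobp had a q-value under 0.05. A WT end peak of Cebpb was overlapped by a KAT8-cKO peak that lay beyond 1 kb from the ends of Cebpb. Of 11 T and natural killer cell markers 2 were marked in KAT8-cKO and 3 in WT, and of 7 B cell markers 1 in KAT8-cKO and 2 in WT. Cd3e and Ms4a1 had no gene-end peak in either list. Cd3d and Cd79b had one in both. A peak list does not show which cells carried the mark, and the part of other cells in the peaks at Lta, Ltb and Cd70 was not tested.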

How the data were processed

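CUT&Tag for H4K16ac gave 2 peak lists, 1 per library. The submitters' processing notes name mm10, Bowtie 0.12.8, MACS2 2.2.7.1 and DiffBind without their roles. The sources used here do not give caller settings, a control library or duplicate handling. For each peak the deposited lists hold a score, a fold over background, the p-value and the q-value as −log10, and a summit. Peaks in both deposited lists went down to a −log10 p of 2.01, and 47.0% of the 55149 KAT8-cKO and 46.9% of the 58229 WT peaks had a q-value under 0.05.

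Peak and gene positions were intersected with Python 3.11.15 and pandas 2.3.3, and the code was tested on simulated data. Genes came from RefSeq GRCm38.p6. A peak was an end peak if it lay within 1 kb of an annotated end, otherwise a body peak if it overlapped the gene, otherwise a flanking peak. Peaks were shared at 1 bp of overlap. The rank of a peak is the share of its own list with a lower −log10 q. No test between genotypes was possible. The members and gene lists were chosen with earlier results of these data known. Named genes are the members, neighbours with a peak, and per list up to 4 genes with the highest fold in a single list and up to 4 with the highest WT fold in both. Of the gene lists' entries, Trac was not matched among protein-coding genes. Another entry is not reported here. Alternatives varied the peak threshold, window, end distance and overlap.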

Additional observations from a re-analysis of the deposited data

How the results depend on the processing

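Most of the counts rest on weak peaks and on the window. As reported, end peaks were found at 4 members in KAT8-cKO and 3 in WT, and the windows held 11 KAT8-cKO and 13 WT peaks, with 3 overlapped in each list. Window peaks were found at 6 members in KAT8-cKO and 7 in WT. With a q-value under 0.05 in both lists, end peaks were left at 1 member in KAT8-cKO and 0 in WT, with 4 KAT8-cKO and 6 WT window peaks and 0 overlapped in either list. Window peaks were then left at 5 members in KAT8-cKO and 7 in WT. Where only peaks with −log10 q of 5 or more counted, end peaks were left at 0 members in both lists, with 0 KAT8-cKO peaks and 1 WT peak in the windows (0 overlapped), at 0 members in KAT8-cKO and 1 in WT. With the strongest 20000 peaks of each list, end peaks were left at 0 members in both lists. The windows then held 1 KAT8-cKO and 5 WT peaks (0 overlapped), at 1 member in KAT8-cKO and 6 in WT. By −log10 q, this cut fell among KAT8-cKO peaks tied at 1.41. The KAT8-cKO peaks inside Nfkbil1 and at the far side of Gm33566 have this value. The KAT8-cKO window counts at this cut thus depend on how ties were ordered. With 5 kb on each side the windows held 5 KAT8-cKO and 5 WT peaks, with 1 overlapped in each list. With 50 kb they held 19 KAT8-cKO and 27 WT peaks, with 6 overlapped in each list. Window peaks were found at 5 members in either list with 5 kb, and at 6 in KAT8-cKO and 7 in WT with 50 kb. Counting the start alone, known for 5 members, gave 2 members in KAT8-cKO and 1 in WT. Ends of 500 bp or 3 kb and overlaps of 50% kept the counts within 1.5 times. No paired analysis was possible because each genotype has 1 library. No replicate could be left out for the same reason, and the unknown read depth limits what a missing peak can mean.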
